A study of Sus scrofa with 8 samples.

Results

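The chemokine ligand genes of the pig were read from the gene annotation that the authors edited and used to count single-cell reads from airway glands. A gene was a member if the annotation called it protein coding and gave it a name of CCL, CXCL, XCL or CX3CL with a digit. This rule found 30 of the 30390 genes in the annotation, of which 20679 were protein coding. They were 19 CC genes, 9 CXC genes, the C gene XCL1 and the CX3C gene CX3CL1. The comparison genes were the 20674 protein-coding genes with a coding transcript, members included.

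The study made 3′ single-cell RNA libraries from submucosal glands (SMGs) of the trachea, the glands under the airway surface that secrete mucus and antimicrobial proteins. Wild-type newborn pigs gave 4 libraries and CFTR-/- newborn pigs, which lack the anion channel mutated in cystic fibrosis, gave 4 libraries. All 8 libraries were counted on the same annotation with genome build Sscrofa11.1, so each gene model had the same value for both genotypes. No read counts were analysed here. The depth of the libraries was therefore unknown, and the lengths and counts had no replicate error and no test.

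Chemokines are small secreted proteins that bind G protein-coupled receptors and direct the movement of white blood cells. Their classes are named for the spacing of the first cysteines in the mature protein. CC chemokines have adjacent cysteines, CXC chemokines have 1 residue between them, and CX3C chemokines have 3. C chemokines keep only 1 cysteine of that pair. In the airway, epithelial cells and resident leukocytes release chemokines that recruit neutrophils, T cells, eosinophils and monocytes. In 3′ libraries the reads come from the end of a transcript, so the 3′ end of a model and its distance to the next gene on the same strand set which reads can be given to a gene.

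The cysteine codons that name the classes are shown for representative members, since the class names rest on them. Each line holds 30 coding bases of Sscrofa11.1 from 5′ to 3′ on the strand of the gene, with the cysteine codons TGT or TGC of the class pair in capitals. CCL2, CCL5, CCL20 and CCL28 stand for the CC class, CXCL8, CXCL9 and CXCL12 for the CXC class, and CX3CL1 for its own.
CCL2 (chr12:40799067-40799096, minus strand): tctccagtcaccTGCTGCtatacacttacc
CCL5 (chr12:39654240-39654269, plus strand): gacaccacacccTGCTGTttttcctacctc
CCL20 (chr15:129174021-129174050, plus strand): agcaactttgacTGCTGCctccgatataca
CCL28 (chr16:27993765-27993794, minus strand): attgcctccagcTGCTGCactgaggtttca
CXCL8 (chr8:69933830-69933859, plus strand): gcagaacttcgaTGCcagTGCataaatacg
CXCL9 (chr8:71668757-71668786, minus strand): aggaatggacgtTGTtccTGCatcaacacc
CXCL12 (chr14:91520793-91520822, plus strand): ctgagctacagaTGCcctTGCcgattcttt
CX3CL1 (chr6:19318648-19318677, plus strand): ggtgtgaacaaaTGCagcatcaagTGCagc

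Within the first 60 codons, 18 of 19 CC genes held adjacent cysteine codons, and 8 of 9 CXC genes held cysteine codons 1 codon apart. These pairs were present in 4.65% and 4.15% of all protein-coding genes in the same window. CX3CL1 held its pair at codon 32, with 3 codons between. The 2 genes without the pair in this window were CCL24, whose pair began at codon 99, and CXCL16, whose pair began at codon 197. Both have a longer model than their class, and in the shortest coding transcript of each gene the pair began at codon 32 for CCL24 and at codon 33 for CXCL16. In 2 members the window held the spacing of another class, so the codons alone did not give the class of every gene. XCL1 had adjacent cysteine codons near its start, and the chosen model of CCL24 had cysteine codons 1 codon apart.

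The pair lay in coding exon 2 in 26 of the 27 members that held it within the window. The other one was CCL25, a ligand of CCR9 that guides lymphocytes to thymus and gut. Its chosen model held adjacent cysteine codons at codons 25 and 26, and again at codons 99 and 100, both in a first coding exon of 398 bp. The other transcripts of CCL25, with 456 coding bases, held 1 such pair, at codons 30 and 31 in coding exon 2. CCL25 was counted among the 18 CC genes by the pair at codon 25. Which of the pairs in the chosen model is that of the class was not tested. The codons for glutamate, leucine and arginine (ELR) directly before the pair mark the CXC chemokines that attract neutrophils through CXCR2. They were present in 2 of 9 CXC genes, CXCL8 and CXCL2, and can be read in the 9 bases before the capitals in the CXCL8 line.

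The CC and CXC genes differed in how the coding sequence was divided. Of the CC genes, 13 of 19 had 3 coding exons, and of the CXC genes, 8 of 9 had 4. Among all protein-coding genes, 7.32% had 3 coding exons and 7.33% had 4. The coding sequences of the classes overlapped in length, with a median of 300 bp in the CC genes (interquartile range, 285 to 340.5 bp) and 324 bp in the CXC genes (312 to 351 bp). The median of all protein-coding genes was 1209 bp. A coding length under 450 bp was found in 26 of 30 members and in 6.7% of all protein-coding genes.

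The CXC genes had 1 more, mostly short, coding exon at the 3′ end of the coding sequence. In CXCL8, which encodes the neutrophil attractant interleukin-8, the 4 coding exons held 64, 136, 84 and 28 bp. In CCL5, the T cell attractant, the 3 coding exons held 76, 112 and 88 bp. The second coding exon, which holds the cysteine pair in most members, had a median of 118 bp in the CC genes (interquartile range, 115 to 125.5 bp) and 127 bp in the CXC genes (124 to 133 bp), against 131 bp in all protein-coding genes with a second coding exon (90 to 197 bp). The first coding exon had a median of 76 bp in the CC genes and 64 bp in the CXC genes. The last coding exon was short in most CXC genes, at 16 bp in CXCL2 and CXCL14 and 28 bp in CXCL8, but reached 105 bp in CXCL9.

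**Figure D1:**
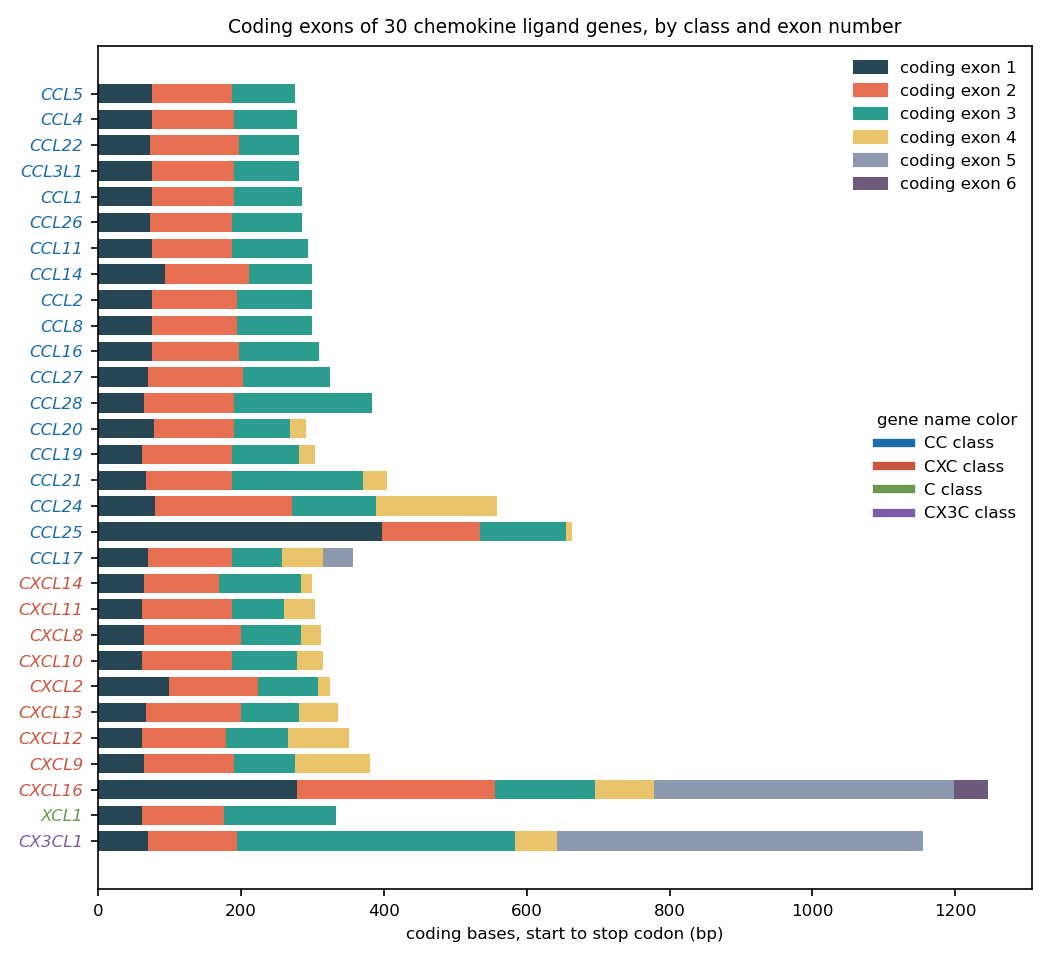
Coding bases of each chemokine ligand gene in bp, one bar per gene, with coding exons in separate colors from 5′ to 3′ and gene names colored by class. The 13 CC genes with 3 coding exons ran from 276 to 384 bp, and 8 of the 9 CXC genes had 4 coding exons with a total of 300 to 381 bp.

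The places where introns interrupt the codons were shared more widely than the exon number. In 27 of 30 members the first coding intron lay after the first base of a codon (phase 1) and the second after the second base (phase 2). This pattern was present in 6.76% of all protein-coding genes, and in 8.58% of those with at least 3 coding exons. All 13 CC genes with 3 coding exons had exactly these 2 introns. The third intron of the CXC genes was in phase 2 in CXCL2, CXCL8, CXCL10, CXCL12, CXCL13 and CXCL14 and in phase 0, between codons, in CXCL9 and CXCL11. CCL20 and CCL21 had the phase 2 form of the third intron and CCL19 the phase 0 form, as in the CXC genes.

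The 3 members without the phase pattern were CCL24, CCL25 and CXCL16. CCL24, an eosinophil attractant, had 4 coding exons and 558 coding bases in a model that was marked as partial and began with the codon CCC. Its known RefSeq transcript had 357 coding bases. CCL25 had 663 coding bases in the chosen model and 456 in its other transcripts, whose introns began with phases 1 and 2. CXCL16, which is made as a membrane protein that also binds oxidized lipoprotein, had 6 coding exons and 1245 coding bases, the longest of the members. Its other transcripts had 5 coding exons, 861 or 753 coding bases and introns that began with phases 1 and 2.

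In the remaining members the exon number departed from the class in CCL17, CCL19, CCL20 and CCL21 only. CCL19 and CCL21, the ligands of CCR7 that bring dendritic cells and T cells into lymphoid tissue, had 4 coding exons with a total of 303 and 405 bp. CCL20, the ligand of CCR6 that attracts Th17 cells and dendritic cells to mucosa, had 4 coding exons and 291 bp. CCL17, a ligand of CCR4 on Th2 cells, had 5 coding exons and 357 bp, and its known transcript had 3 coding exons and 309 bp. CX3CL1, the other membrane-anchored ligand, had 5 coding exons and 1155 bp. Its model included an intron of 2 bp between coding exons 3 and 4, which had 389 and 59 bp.

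The genes lay on 10 chromosomes, and 22 of 30 lay in 7 clusters, taken as runs of members with gaps of at most 1000000 bp. The clusters held 16 of the 19 CC genes and 5 of the 9 CXC genes. No cluster held both CC and CXC genes. The members outside the clusters were CCL20, CCL25, CCL28, CXCL12, CXCL13, CXCL14, CXCL16 and XCL1. CXCL13, the B cell attractant, lay on chromosome 8 at 1345591 bp from CXCL11.

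Within the clusters, 20 of 22 members (90.9%) were on the main strand of their cluster. The main strand was the strand of most members of the cluster, so this share is raised by construction, and no base for it was computed. Of the 15 pairs of consecutive members, 13 were on the same strand, whatever lay between them. Of the 11 pairs with no other protein-coding gene starting between the members, 9 were on the same strand, against 50.8% of all pairs of neighboring protein-coding genes. Over the whole genome, 19 members were on the plus strand and 11 on the minus strand, and 50.6% of all protein-coding genes were on the plus strand. The 2 genes off the main strand, CCL4 and CCL1, each had the lowest coordinates of a chromosome 12 cluster.

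The 2 clusters of chromosome 12 held the inflammatory CC genes. The larger one spanned 179932 bp (chr12:39479190-39659121) with CCL4 on the minus strand and CCL3L1, CCL14, CCL16 and CCL5 on the plus strand. CCL4, CCL3L1 and CCL5 attract T cells and monocytes, and CCL14 and CCL16 are ligands of CCR1. CCL4 and CCL3L1 were divergent with 11487 bp between them, and CCL14 and CCL16 were the closest pair of members, 2136 bp apart. This cluster also held 2 protein-coding genes with placeholder names, LOC100515857 (C-C motif chemokine 3 in the product text) and LOC100516039 (C-C motif chemokine 23), 1 long noncoding RNA and 3 pseudogenes. It was followed after 3664 bp by HEATR9.

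The other cluster of chromosome 12 began 1068892 bp farther on and spanned 72000 bp (chr12:40728014-40800013). It held CCL1, a ligand of CCR8, on the plus strand and CCL8, CCL11 and CCL2 on the minus strand, with no other gene inside. CCL2 and CCL8 attract monocytes and CCL11 attracts eosinophils. CCL1 and CCL8 converged with 9056 bp between their ends.

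The CXC genes formed 2 clusters on chromosome 8, separated by 1506395 bp. The first held CXCL8 and CXCL2 on the plus strand over 226500 bp (chr8:69932646-70159145). Between them were 4 other chemokine genes on the same strand under names the rule did not cover, namely AMCF-II (alveolar macrophage-derived chemotactic factor-II), PPBP (pro-platelet basic protein), LOC100520680 (platelet factor 4) and LOC100525396 (growth-regulated protein homolog gamma-like), and 1 pseudogene. AMCF-II and PPBP had the ELR codons before their cysteine pair, as CXCL8 and CXCL2 did. The second held CXCL9, CXCL10 and CXCL11, the interferon-induced ligands of CXCR3 on T cells and natural killer cells, all on the minus strand over 60129 bp (chr8:71665541-71725669). CXCL10 and CXCL11 lay inside the span of ART3, an ADP-ribosyltransferase gene on the other strand, and shared no exon base with it.

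The other 3 clusters had all of their members on the plus strand. On chromosome 10 (chr10:32093783-32138980) they were CCL21, CCL19 and CCL27, a ligand of CCR10 made in skin, and CCL27 ended 3 bp before IL11RA on the other strand. On chromosome 6 (chr6:19296726-19372972) they were CCL22, CX3CL1 and CCL17, which placed the single CX3C gene between the ligands of CCR4. On chromosome 3 (chr3:10347397-10385677) they were CCL24 and CCL26, both ligands of the eosinophil receptor CCR3, 19805 bp apart.

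**Figure D2:**
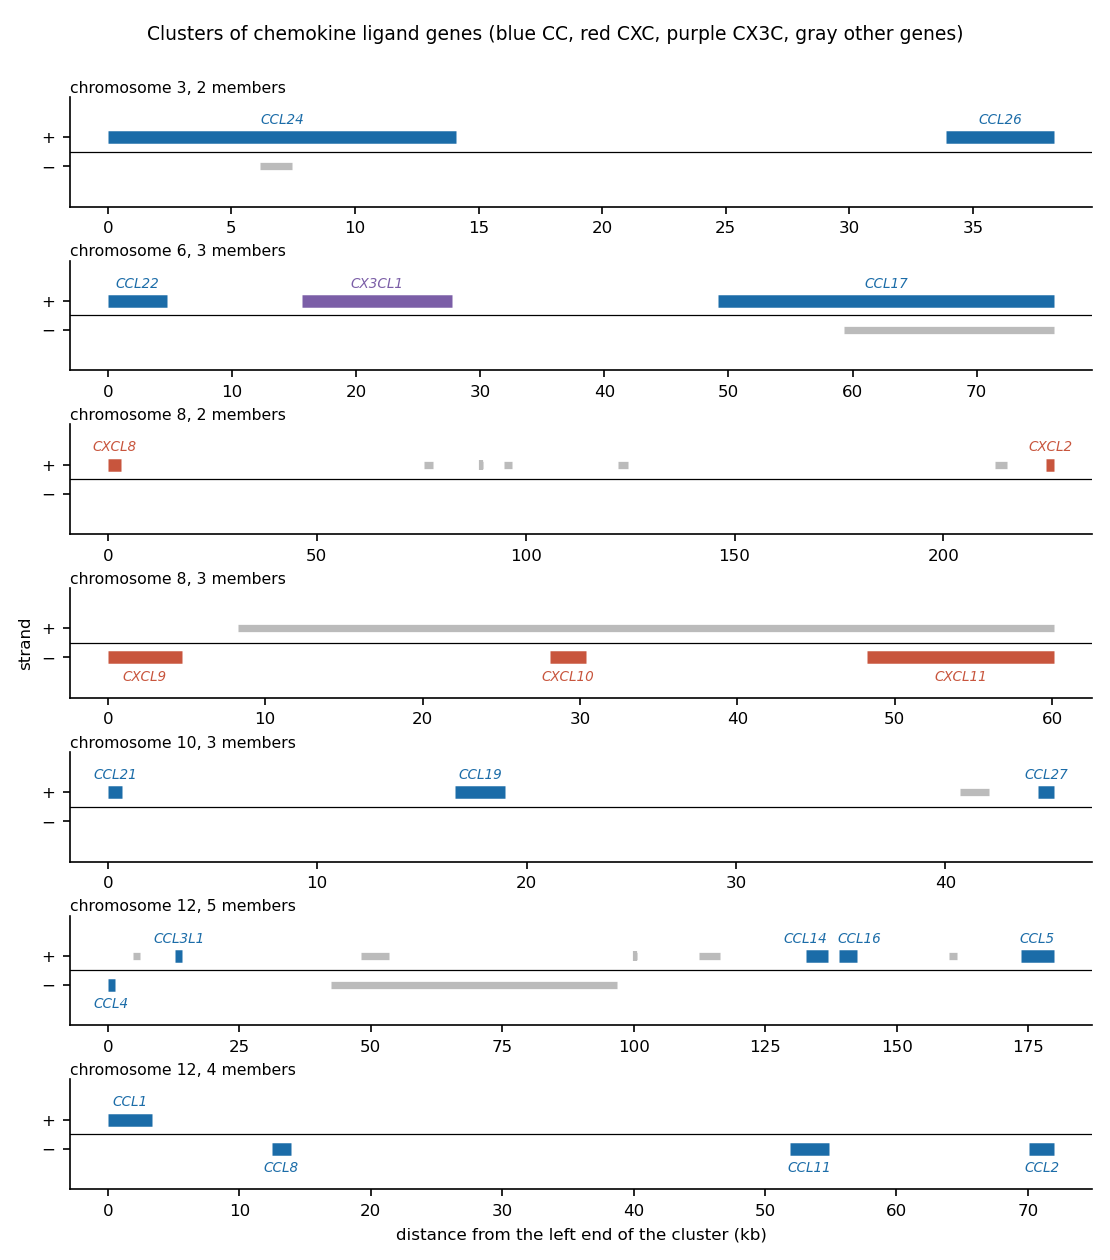
Positions of the genes in the 7 clusters as distance from the left end of each cluster in kb, with plus-strand genes above the line and minus-strand genes below it. CCL4 and CCL1, at the left ends of the chromosome 12 clusters, are the 2 members opposite to the main strand, and gray bars are genes that are no members.

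No member shared an exon base with another gene on the same strand, against 3.36% of all protein-coding genes, and none shared one with a gene on the opposite strand, against 17.1%. The smallest distance from the 3′ end of a member to the next gene on its strand was 79 bp, from CCL17 to COQ9, an enzyme of coenzyme Q synthesis. The next smallest was 2136 bp, from CCL14 to CCL16. The end of CCL17 used for the 79 bp was that of a predicted transcript, 24167 bp beyond the end of the known one. Members were also compact, with a gene span under 5000 bp in 19 of 30 against 21.8% of all protein-coding genes. Only 1 coding transcript was annotated for 23 of 30 members, against 51.1% of all protein-coding genes. Models taken from known RefSeq transcripts, the curated kind, were the source of 21 of the 30 members and of 10.1% of all protein-coding genes, and 1 coding transcript was annotated for 20 of 21 known members and 83.6% of all known models, and for 3 of 9 predicted members and 47.4% of all predicted models. Exon bases shared on the same strand were also less frequent in known models (0.913%) than in predicted ones (3.62%), as were those on the opposite strand (10.2% and 17.9%). The spans ran from 700 bp in CCL21 to 31885 bp in CCL25.

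Near-identical copies, which would make the source of a read ambiguous, were sought with coding sequences and with the last 300 bp of each transcript. A match of at least 95% identity over at least 90 bp elsewhere in the genome was found for the coding sequence of CXCL2 only. It had 3 such matches, the best being 97.7% over 130 bp of LOC100525396. The coding sequences were spliced, so a match to a copy with introns breaks near exon junctions. Coding exons under 90 bp, such as those of 76 and 88 bp in CCL4, could therefore be missed in such a copy. Of the transcript ends, only that of CX3CL1 had matches elsewhere, and it had 6117, the best being 97.4% over 192 bp on chromosome 5. Reads from these stretches of CXCL2 and CX3CL1 may be assigned ambiguously.

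The 3′ UTR, the exon bases downstream of the stop codon, had a lower median in the members than in the annotation as a whole. The member median of 336.5 bp (quartiles, 65.25 and 710.5 bp) compared with 715.5 bp over all protein-coding genes (quartiles, 211 and 1865.75 bp). By source, the median was 212 bp in the 21 known members against 296 bp in all known models, and 685 bp in the 9 predicted members against 801 bp in all predicted models. By class it was 217 bp for CC genes (quartiles, 75.5 and 396.5 bp) and 719 bp for CXC genes (quartiles, 262 and 787 bp). The class ranges overlapped, from 0 to 1970 bp in the CC genes and from 27 to 1181 bp in the CXC genes. For each gene the lengths were those of the coding transcript with the most 3′ end.

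The neutrophil attractants CXCL8 and CXCL2 had 3′ UTRs of 1092 and 719 bp. Of the ligands of CXCR3, CXCL10 had 760 bp and CXCL11 had 685 bp, while CXCL9 had 27 bp. Among the homeostatic CXC genes, CXCL14, an epithelial chemokine with antimicrobial activity, had 1181 bp and CXCL13 had 787 bp. CXCL12, which retains stem cells and leukocytes through CXCR4, had 45 bp in the transcript with the most 3′ end. Transcripts of CXCL12 that ended 12216 bp earlier had 3′ UTRs of 5757 and 3239 bp. Of the membrane-anchored ligands, CX3CL1 had 2346 bp, the longest of the members, and CXCL16 had 262 bp.

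The inflammatory CC genes had a lower median, 209 bp over 8 genes. CCL5 had 396 bp, CCL2 had 392 bp, CCL14 had 290 bp, CCL1 had 217 bp and CCL16 had 201 bp. CCL8 had 25 bp, CCL4 had 2 bp and CCL3L1 had none. The eosinophil attractants had 911 bp in CCL24, 138 bp in CCL11 and 96 bp in CCL26, and the known transcript of CCL24 had 104 bp.

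Of the ligands of CCR4, CCL22 had 383 bp and CCL17 had 1970 bp. The long form of CCL17 rested on a predicted transcript that ended 24167 bp beyond the known transcript, whose 3′ UTR was 16 bp. The mucosal and skin genes had 500 bp in CCL28, a ligand of CCR10 secreted by mucosal glands, 456 bp in CCL20, 397 bp in CCL25 and 55 bp in CCL27. Of the lymphoid genes CCL19 had 212 bp and CCL21 had none. XCL1, the T cell and natural killer cell product that attracts dendritic cells through XCR1, had 5 bp. A 3′ UTR of 0 bp was thus present in 2 of 30 members, against 8.88% of all protein-coding genes.

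A 3′ UTR under 100 bp was present in 9 of 30 members, against 15.8% of all protein-coding genes. These were CCL4, CCL8, CCL21, CCL26, CCL27, CCL3L1, CXCL9, CXCL12 and XCL1. All 9 came from known RefSeq transcripts, and the 9 members with predicted transcripts had 3′ UTRs of 201 to 2346 bp. The source was that of the transcript with the most 3′ end, so source and 3′ UTR length were not independent. The predicted members CCL17, CCL20, CCL24, CCL25, CXCL11 and CXCL16 also had a known transcript. In that order, the 3′ UTRs of these known transcripts were 16, 69, 104, 0, 0 and 15 bp. Over all protein-coding genes a 3′ UTR under 100 bp was present in 24.8% of known and 14.7% of predicted models. The part of the transcript source in the difference between classes was not tested, and known transcripts made up 14 of 19 CC models and 6 of 9 CXC models.

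**Figure D3:**
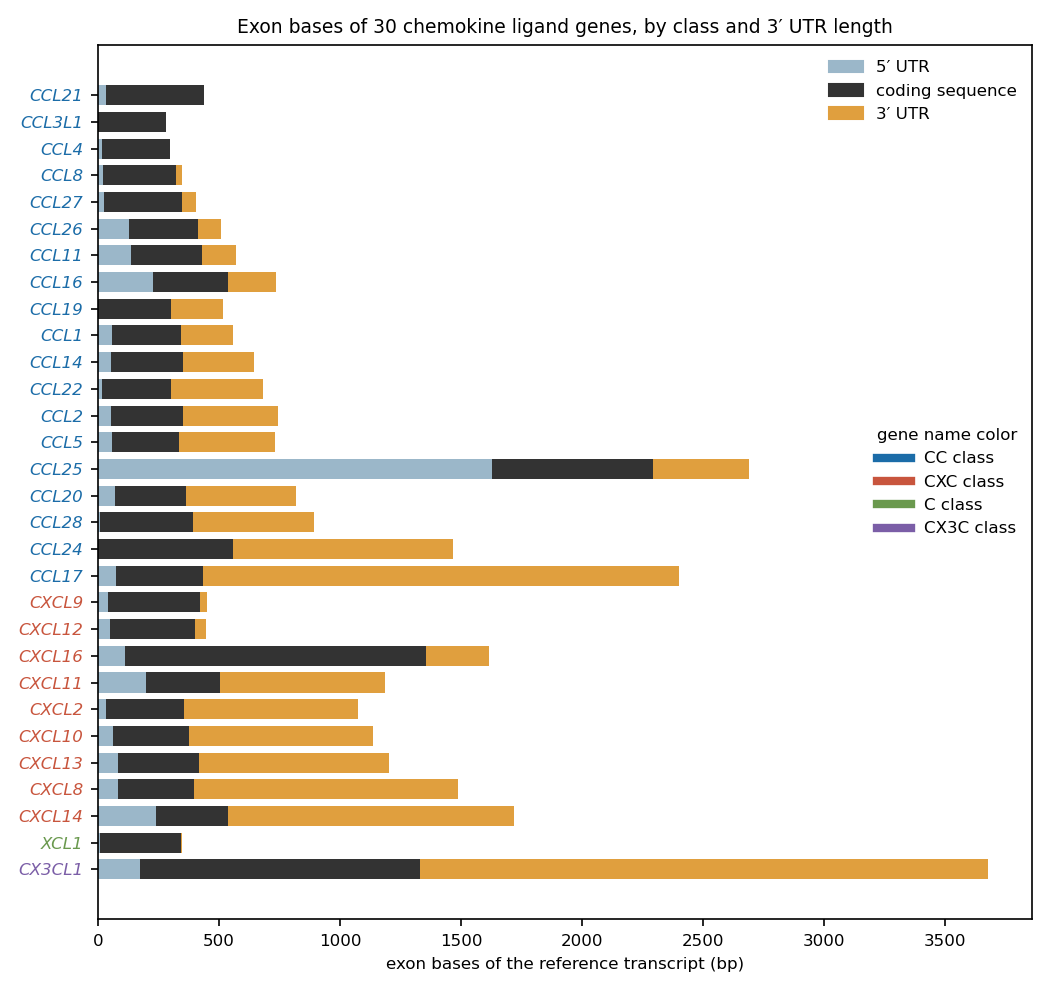
Exon bases of the reference transcript of each member in bp, stacked as 5′ UTR, coding sequence and 3′ UTR, with genes ordered by class and then by 3′ UTR length. The 3′ UTR of CX3CL1 (2346 bp) and CCL17 (1970 bp) and the 5′ UTR of CCL25 (1630 bp) are the longest segments outside the coding sequence, and CCL21 and CCL3L1 end at the stop codon.

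The 5′ UTRs had lower medians than the 3′ UTRs in both classes, at 52 bp in the CC genes and 81 bp in the CXC genes, against 186 bp in all protein-coding genes. By source it was 42 bp in the known members against 57 bp in all known models, and 110 bp in the predicted members against 211 bp in all predicted models. The longest values came from 3 genes. The model of CCL25 had 1630 bp, that of CXCL14 had 238 bp and that of CCL16 had 227 bp. The other transcripts of CCL25 had 5′ UTRs of 342, 131 and 0 bp. The chosen models of CCL19, CCL24 and CCL3L1 had no 5′ UTR, which is 3 of 30 members against 11.6% of all protein-coding genes. The known transcript of CCL24 had a 5′ UTR of 96 bp. CCL3L1 was the only member with neither UTR.

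The exons differed from RefSeq in 1 member, CCL19, whereas 1.2% of all protein-coding genes had exons that differed or no RefSeq gene with the same identifier. The share was 7.02% of known and 0.484% of predicted models, and CCL19 was 1 of 21 known members. All 30 members had the name they carried in RefSeq. The 3′ end of CCL19 on chromosome 10 was moved from position 32112529 to 32112741, a gain of 212 bp on 303 exon bases, and its 3′ UTR rose from 0 to 212 bp. The old end was the stop codon and the new end had a poly(A) signal, the hexamer that directs cleavage of the transcript, 28 bases from the end. The last 30 transcript bases at both ends are shown because this is the single edit, with the stop codon TAG and the hexamer AATAAA in capitals. The old end crossed an exon junction.
CCL19 at the RefSeq end (chr10:32112419-32112529, plus strand): tctgctaagagcaagcaccaccgcaacTAG
CCL19 at the edited end (chr10:32112712-32112741, plus strand): tcAATAAAgcccagctggtacccacgaatc

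A poly(A) signal, AATAAA or ATTAAA on the strand of the gene, lay in the last 50 bp of 14 of 30 members, against 60.9% of all protein-coding genes. It was present in 6 of 9 CXC genes, in 7 of 19 CC genes and in CX3CL1. Of the 9 members with a 3′ UTR under 100 bp, 1 had a signal, CCL27. Of the 21 with at least 100 bp, 13 had one (61.9%), against 67.9% of all protein-coding genes of that length. The members of at least 100 bp without a signal were CCL1, CCL2, CCL11, CCL14, CCL17, CCL22, CCL24 and CXCL16.

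The contrast is shown with the last 30 bases of CCL20 and CXCL10, which held a signal, and of CCL21 and CCL3L1, which ended with the stop codon TGA. Only the most 3′ hexamer is in capitals, and the CCL20 line holds another AATAAA before it.
CCL20 (chr15:129176040-129176069, plus strand): aagaagaataaatactgaaAATAAAagaac
CXCL10 (chr8:71693641-71693670, minus strand): agacaaaaaaggtAATAAAgttactataag
CCL21 (chr10:32094453-32094482, plus strand): gagacccccaaaagggccatagcccagtga
CCL3L1 (chr12:39493316-39493345, plus strand): tacatctctgacctggagctgagtgcctga

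AU-rich elements are 3′ UTR stretches, built from repeats of a pentamer, through which many cytokine mRNAs are degraded quickly. The pentamer, ATTTA in the letters of the genome, was present in the 3′ UTR of 11 of 30 members, against 55.5% of all protein-coding genes. Of the 21 members with at least 100 bp of 3′ UTR it was present in 52.4%, against 65.3% of all protein-coding genes of that length. By source it was present in 6 of 21 known members against 40.4% of all known models, and in 5 of 9 predicted members against 57.3% of all predicted models. By class it was present in 6 of 9 CXC genes and 5 of 19 CC genes.

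The pentamers were concentrated in a few genes. CXCL8 and CXCL2 held 11 each, CXCL13 held 4, CCL17 and CCL20 held 3 each, and the other 25 members held 2 or fewer. Summed over the class, the CXC genes held 32 pentamers in 5558 bp of 3′ UTR (5.76 per kb) and the CC genes held 10 in 6641 bp (1.51 per kb). All protein-coding genes together held 2.04 per kb. Most of the 32 pentamers were those of CXCL8 and CXCL2. CXCL12 entered the sum with 45 bp, and its transcripts with 3′ UTRs of 5757 and 3239 bp were not counted. The share of A and T in the summed 3′ UTR was 61.9% in the CXC genes and 52.1% in the CC genes, against 55.7% in all, and its part in the pentamer counts was not tested.

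At least 3 pentamers were present in 5 of 30 members, against 30.9% of all protein-coding genes. They were present in 2 of 21 known members against 15.4% of all known models, and in 3 of 9 predicted members against 32.6% of all predicted models. The nonamer TTATTTATT, the core of the stronger AU-rich elements, overlaps the pentamer and was present in 3 of 30 members, CXCL8, CXCL2 and CCL1, against 5.95% of all protein-coding genes. Of the 21 members with at least 100 bp of 3′ UTR these were 14.3%, against 7.04% of all protein-coding genes of that length. The first nonamer of each is shown in capitals because these 3 genes alone held it. All 3 lines also show pentamers that overlap the nonamer or lie beside it.
CXCL8 (chr8:69935245-69935274, plus strand): atttattcacTTATTTATTatttatatatt
CXCL2 (chr8:70158572-70158601, plus strand): atatgtgtatTTATTTATTtatttttcaaa
CCL1 (chr12:40731322-40731351, plus strand): ttgctgcactTTATTTATTtaaattctaga

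**Figure D4:**
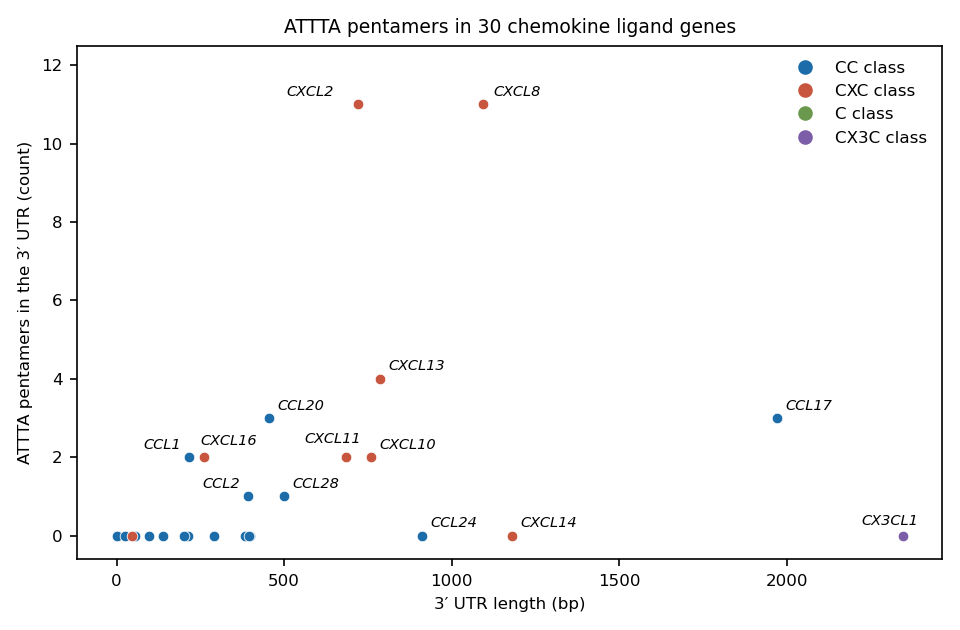
Number of ATTTA pentamers in the 3′ UTR of each member against the length of that 3′ UTR in bp, with points colored by class. CXCL8 and CXCL2 lie at 11 pentamers with 1092 and 719 bp, whereas CX3CL1 and CXCL14 have none in 2346 and 1181 bp.

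At the 5′ end, the 250 bp before and 50 bp after a transcript start were searched on both strands for TATAAA, the core of the TATA box. The start was that of the transcript chosen by its 3′ end, and starts of other transcripts were not searched. It was present in 8 of 30 members, against 11.4% of all protein-coding genes. The 8 genes were CCL4, CCL5, CCL8, CCL20, CCL25, CCL3L1, CXCL8 and CXCL9. Where the chosen transcript has no annotated 5′ UTR, as in CCL3L1, its start is the first coding base, so the window then lies around the start codon.

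The receptors of these ligands had longer coding sequences in fewer exons. Of 23 receptor names looked up, 22 were found, 17 of conventional and 5 of atypical receptors, most of which take up chemokines without G protein signaling. The name CXCR1 was not found in the annotation used here. Their coding length had a median of 1084.5 bp, and 11 of 22 had 1 coding exon, against none of the 30 ligands and 13.7% of all protein-coding genes. Their 3′ UTRs had a median of 863.5 bp, and the ligand median minus the receptor median was -527 bp. Known models made up 9 of the 22 receptors and 21 of the 30 ligands, and the part of the source in this difference was not tested. A 3′ UTR under 100 bp was present in 2 of 22 receptors, CCR10 with 0 bp and ACKR1 with 26 bp.

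Ligands and receptors that bind each other differed in how much 3′ sequence was annotated, with no single direction. Examples with the longer 3′ UTR in a ligand were CXCR3 with 461 bp against 760 bp for CXCL10 and 685 bp for CXCL11, but 27 bp for CXCL9, and CX3CR1 with 1199 bp against 2346 bp for CX3CL1. CCR7 had 953 bp against 212 bp and 0 bp for its ligands CCL19 and CCL21. CCR10 had 0 bp against 500 bp for CCL28 and 55 bp for CCL27. XCR1 had 3796 bp against 5 bp for XCL1. CXCR4 was the only receptor with exons that differed from RefSeq, and its 3′ UTR rose from 0 to 532 bp against 45 bp in the chosen transcript of CXCL12. Exon bases were shared with a gene on the same strand by 3 receptors, with 243 bp between CCR1 and XCR1 and 67 bp between ACKR2 and ZNF662.

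**Figure D5:**
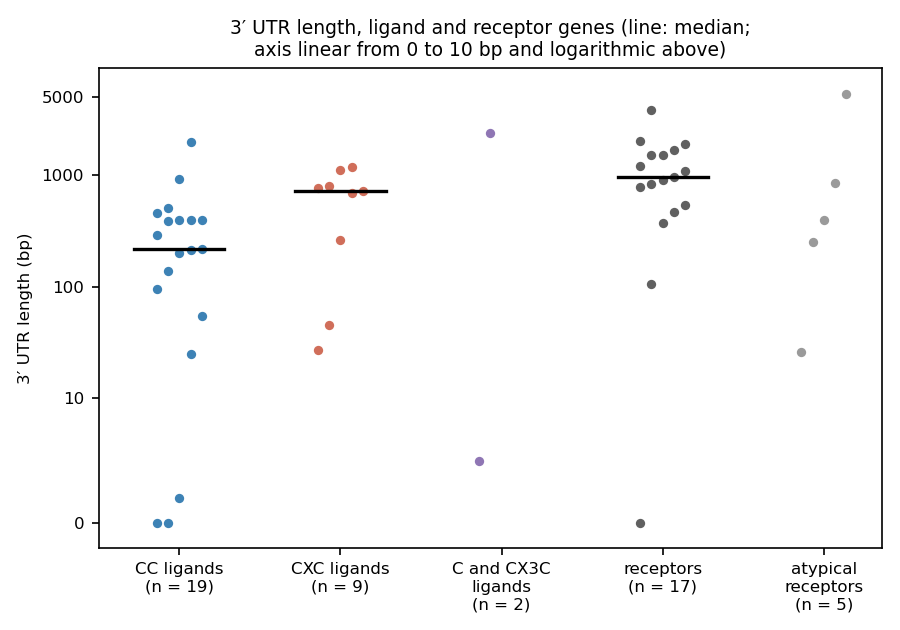
3′ UTR length in bp of CC, CXC, and C or CX3C ligand genes and of conventional and atypical receptor genes, 1 point per gene, with a line at the median where a group has at least 9 genes. The axis is linear from 0 to 10 bp and logarithmic above. The medians are 217 bp for CC ligands, 719 bp for CXC ligands and 953 bp for conventional receptors.

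The list of ligand names also showed which well-known members had no gene of that name. All names were found in the lists of CXCR3 ligands, eosinophil attractants (CCL11, CCL24 and CCL26), CCR4 ligands and CCR7 ligands, and for the mucosal and skin genes CCL20, CCL25, CCL27 and CCL28. Of 6 neutrophil attractants, CXCL8 and CXCL2 were found, and CXCL1, CXCL3, CXCL5 and CXCL6 were not found under those names. Of 14 inflammatory CC names, 8 were found, and CCL3, CCL7, CCL13, CCL15, CCL18 and CCL23 were not found under those names. The names CXCL17 and XCL2 were not found either. The product text tied CCL3 and CCL23 to LOC100515857 and LOC100516039, and platelet factor 4 to LOC100520680. LOC100525396, between CXCL8 and CXCL2, had the product text growth-regulated protein homolog gamma-like, which gives no CXCL number, and its model is not described here.

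The genes under placeholder names were not counted as members. LOC100515857 had 4 coding exons, 381 coding bases and a 3′ UTR of 418 bp, and LOC100516039 had 4 coding exons, 390 coding bases and 269 bp. In both, the first coding introns were in phases 1 and 1, unlike the phases 1 and 2 of most members. LOC100737180 and LOC110260995 on chromosome 6 had a product given as C-X-C motif chemokine 17-like, with 1074 and 360 coding bases and 3′ UTRs of 30 and 320 bp. Their first coding introns were also in phases 1 and 1.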

How the data were processed

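The authors dissected tracheal SMGs from newborn pigs, made libraries with the 10x Genomics Chromium Single Cell 3′ v2 kit, and counted reads with Cell Ranger 3.0.2, as given by the processing notes of the submitters. The deposited file holds the coordinates of genes, exons and coding segments on Sscrofa11.1, counted from 1, and no other measurement. The authors made it by editing NCBI Sus scrofa Annotation Release 106.

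Gene models were read from this file with Python 3.11.15 and numpy 2.4.6. For each gene the coding transcript with the most 3′ end was used, the one with the longer coding sequence in ties. Coding length included the stop codon. Unedited models and genome sequence came from RefSeq on the same build, read with pysam 0.24.0. Copies were sought with BLAST+ 2.17.0 (megablast). Figures used matplotlib 3.10.9. The measures were tested on simulated gene models, and 20 of 20 checks passed.

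All values are descriptions, since gene models have no replicates. Members, gene lists and measures were chosen with earlier results of these data known. Named were all members, listed genes that were found, and genes next to a cluster where a distance is given. Genes of placeholder names and cysteine codons of other transcripts were named after their values were seen. The planned reading of cysteines in protein sequences was replaced by codons, because no protein table was used here.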

Additional observations from a re-analysis of the deposited data

How the results depend on the processing

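Of 38 alternatives to 14 results, 24 were classed as the same, 14 as moved and 0 as reversed. Counts classed as the same could still differ. The 7 clusters became 6 with a gap of 200000 bp and 5 with 5000000 bp. They became 8 with the 4 placeholder genes of C-C or C-X-C motif products. The 14 members with a poly(A) signal became 12 with AATAAA alone. The 27 members with the cysteine codons of their class became 29 when any coding transcript counted. With the median over all coding transcripts of a gene, the median 3′ UTR was 316.25 bp, CC minus CXC was -543 bp for 3′ and -31 bp for 5′ UTRs, and ligands minus receptors was -547.25 bp. With the 4 placeholder genes added, the median 3′ UTR was 305 bp, and CC minus CXC was -416 bp for 3′ UTRs, -30 bp for 5′ UTRs and -36 bp for coding length. With the transcript of longest coding sequence, CC minus CXC for 5′ UTRs was -31 bp. The longest 3′ UTR of any transcript, chosen after seeing the data, gave a median of 387.5 bp and CC minus CXC of -543 bp. The values as reported were -502 bp for 3′ UTRs, -29 bp for 5′ UTRs, -24 bp for coding length and -527 bp for ligands minus receptors. A cluster gap of 5000000 bp gave 69.6% of members on the main strand. The 11 members with ATTTA became 5 with at least 3 pentamers and 3 with the nonamer, which are stricter by construction. The 11 became 12 when any coding transcript counted, a setting chosen after seeing the data. The protein reading of cysteines was not run.

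In these values a model that ends early and a gene with a short 3′ UTR cannot be told apart, and read depth was not used here. No paired analysis was possible because 1 annotation served all 8 libraries.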
